A study of Rattus norvegicus with 20 samples.

Results

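Genes of the extracellular matrix and of the proteases that cut it were examined in the nucleus accumbens shell of the rat, the outer division of a ventral striatal nucleus that takes part in reward. The set held every gene on the array whose symbol marks it as a collagen, a laminin, an ADAMTS or MMP protease, a TIMP inhibitor or a HAPLN link protein, together with Vcan, Bcan, Ncan, Acan, Tnr, Tnc and Reln. Members were chosen by symbol alone, and each gene was read from the probe set with the highest mean over the 20 arrays. This gave 95 genes, with 143 probe sets, of 14217 genes on the array. A floor on mean signal, which left out the dimmest 33.3% of probe sets (mean below 6.65 on the log2 scale), kept 59 of the 95 members and 10746 of all genes. The members below the floor were 36 genes such as most secreted MMPs, and they are described without a test.

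The animals were alcohol-preferring (P) rats, which were selectively bred to drink ethanol. In the ethanol group (n = 10 animals) rats could drink ethanol solutions of 15 and 30% while adolescent, and in the water group (n = 10 animals) P rats received water and no ethanol. The labels give no age in days, no age at tissue collection, and no intake or genotype beyond the line. All animals thus shared the P background, and no rat of another line served as a control. Each animal gave 1 array of bulk tissue RNA. Values are log2 units, so a difference of 1 is a doubling, and every difference is ethanol minus water.

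The brain matrix is unlike that of connective tissue. Between cells it is built mainly from hyaluronan, lectican proteoglycans that bind it, link proteins that fasten the bond, and tenascin-R, which ties lecticans together. Around some neurons the same parts condense into perineuronal nets. Around vessels and under the meninges lies a basement membrane of collagen IV and laminins, with fibrillar collagens beside it. ADAMTS and MMP enzymes cut these proteins, and TIMPs block the enzymes.

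None of the 59 members tested passed the threshold in the comparison of ethanol with water (limma, Benjamini-Hochberg adjusted p under 0.05 over all 20695 probe sets). Over all genes 10 of 10746 passed, which is 0.0931%. By probe set it was 20 of 20695 (0.0966%). At an unadjusted p under 0.05 there were 8 members (13.6% of the 59, against 10.01% of all genes). Of these 4 were higher in ethanol, as were 5.24% of all genes, and 4 lower, as were 4.77%. The members were divided between both directions, with 31 positive and 28 negative differences (47.5% negative, against 49.9% of all genes). Their median difference was 0.003, against 0.000 for all genes, and single members ranged from -0.36 (Hapln4) to 0.51 (Adamts19). In 0 of the 59 members did the values of both groups lie fully apart, against 0.0651% of all genes. Of the 36 dim members, none passed when they were tested without the floor either, and 12 of the 95 (12.6%, against 9.28% of genes) then had an unadjusted p under 0.05.

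**Figure D1:**
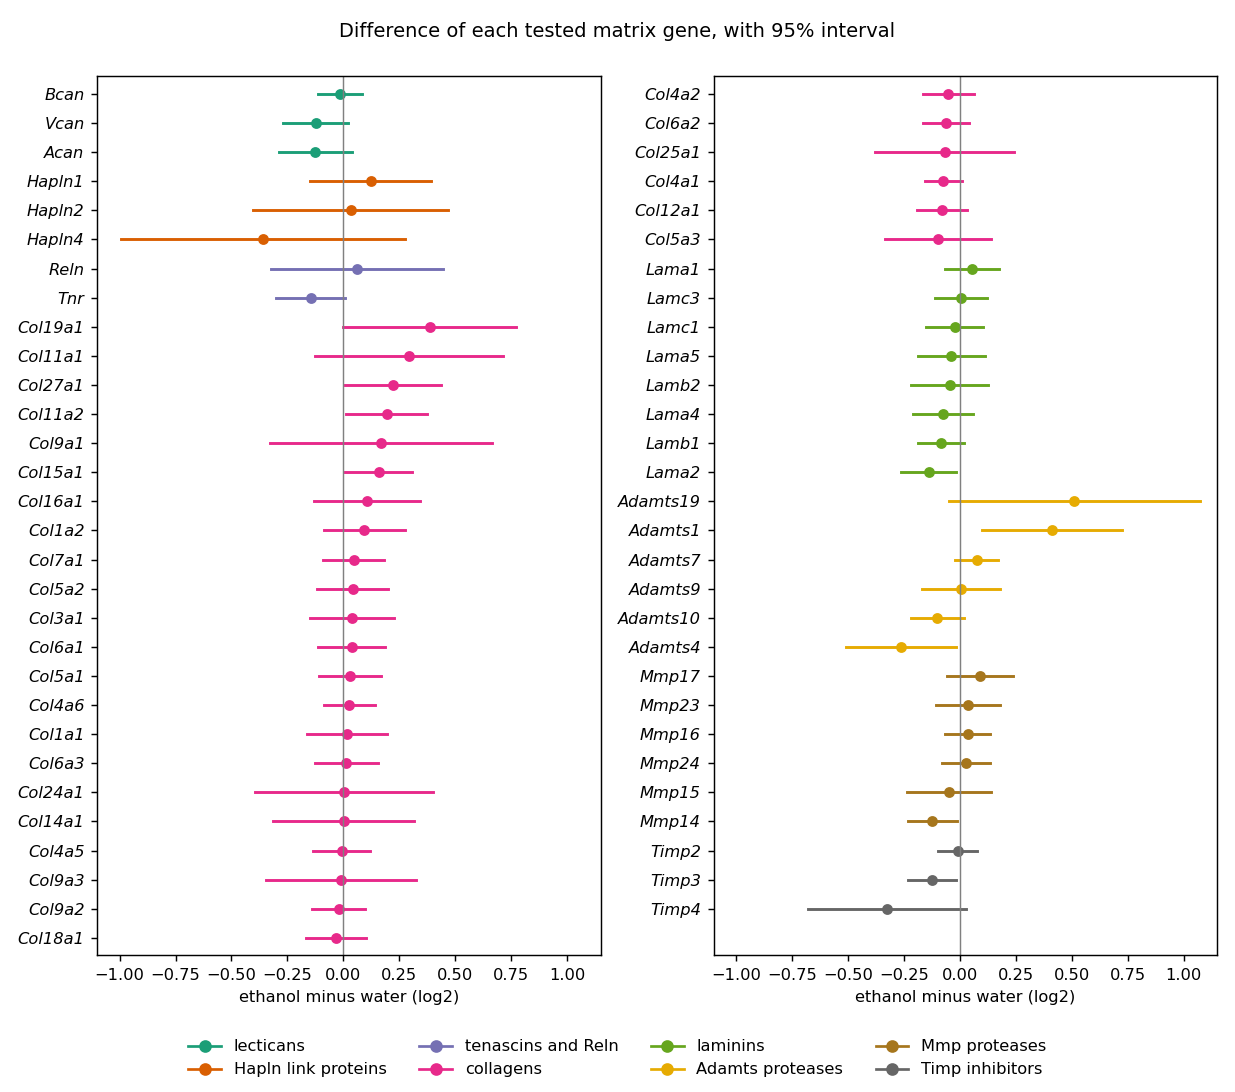
Ethanol minus water (log2 units) for each of the 59 matrix genes above the signal floor, coloured by family, with 95% intervals from limma and n = 10 animals per group. Points lie between -0.36 and 0.51 and scatter on both sides of 0.

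Water animals varied more than ethanol animals for most members. The SD was larger in water for 50 of 59 members (84.7%), and for 81.2% of all genes. Water animals 17, 19 and 20 stood apart in markers of medium spiny neurons, which make up most striatal neurons, with mean levels of 12.03, 12.27 and 11.72 where the other 17 animals had 12.51 to 13.11. Water animals 12 and 13 stood apart in several collagens, described below, and arrays 12, 17 and 20 were outlying in their correlation with the rest. All 15 medium spiny neuron markers were above the floor, Drd1, Penk and Ppp1r1b among them. Of 7 choroid plexus markers 2 were above the floor, Enpp2 and Aqp1. Ttr, of the same list, was below it, at 6.59 ± 0.13 in ethanol and 6.65 ± 0.57 in water (SD, n = 10 each). Of the summary measures of the arrays, marker means and the 3' minus 5' signal of control probe sets among them, none of 12 differed after adjustment. The smallest adjusted p was 0.156 (permutation tests), for the oligodendrocyte precursor mean (-0.15), the 3' minus 5' value (-0.13) and the correlation with other arrays. Without water animals 17, 19 and 20 the count at an unadjusted p under 0.05 was 9 of 59 members (15.3%, against 8.45% of genes). Without animals 12 and 13 it was 4 (6.78%, against 10.4%), and in both cases 0 members passed after adjustment.

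Among lecticans, the 3 members above the floor all had negative differences, with a median of -0.12. Vcan (versican), a lectican with splice forms made by oligodendrocyte precursors and myelinating cells, ranged from 9.13 to 9.63 in ethanol (median 9.29) and from 9.26 to 9.73 in water (median 9.35). Its difference was -0.12 (adjusted p = 0.469), and 8 of 10 ethanol animals were below the water mean. The highest water values, in animals 17, 19 and 20, were 9.65, 9.73 and 9.68, and without these animals the difference was -0.02. Acan (aggrecan), the lectican that marks perineuronal nets, was dim, at 6.48 to 6.89 in ethanol (median 6.65) and 6.61 to 7.20 in water (median 6.68). It differed by -0.13 (adjusted p = 0.512), and by -0.05 without animals 17, 19 and 20. Bcan (brevican), the lectican that astrocytes and oligodendrocyte precursors make, was almost level between the groups, at 11.53 ± 0.07 in ethanol and 11.55 ± 0.12 in water (SD, n = 10 each), with a difference of -0.01 and a 95% interval of -0.11 to 0.08. Its second probe set differed by 0.08, with the opposite sign. Ncan (neurocan) lay below the floor at 5.86 ± 0.16 in ethanol and 5.73 ± 0.19 in water, a difference of 0.13 that was not tested with the others.

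Tnr (tenascin-R), which crosslinks lecticans, had the smallest p of the net proteins. Its values ran from 10.26 to 10.64 in ethanol with a median of 10.42, and from 10.21 to 10.90 in water with a median of 10.60. The groups overlapped, with 9 of 10 ethanol animals below the water mean, and the difference was -0.15 ± 0.07 (SE, adjusted p = 0.433). The highest water values, 10.90 in animal 17, 10.79 in animal 12 and 10.75 in animal 20, came from the arrays called outlying. Without animals 17, 19 and 20 the difference was -0.06, and without 12 and 13 it was -0.11. Tnc (tenascin-C), which is made by astrocytes during development and repair, was below the floor at 6.06 ± 0.39 in ethanol and 5.95 ± 0.34 in water. Reln (reelin), a secreted glycoprotein of interneurons that guides neuron placement and later acts at synapses, spanned 8.13 to 9.31 in ethanol (median 8.50) and 8.05 to 9.36 in water (median 8.42). It differed by 0.06 (adjusted p = 0.907), with a wide 95% interval of -0.32 to 0.45. Water animals 17, 19 and 20 were at 9.13, 9.36 and 9.12, and without them the difference was 0.33.

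Link proteins varied widely between water animals. Hapln4, which stabilises the lectican bond in nets of the brainstem and other regions, had the most negative difference of all members, -0.36 (adjusted p = 0.628). Its second probe set above the floor differed by -0.03. In the probe set of highest mean, Hapln4 ran from 7.18 to 8.47 in ethanol (median 7.70) and from 7.10 to 9.86 in water (median 7.65). The medians nearly coincide. Water animals 20, 17 and 19 had the highest values of all 20 animals, at 9.86, 9.56 and 8.52, and without them the difference was 0.18, of the opposite sign. In these 3 animals the mean of 6 genes listed as GABAergic interneuron markers was also the highest of all, at 12.18, 11.86 and 11.66. The 6 were Gad1, Kcnc1, Kcnc2, Npy, Pvalb and Sst, of which 2 (Npy and Sst) had positive differences and 4 negative. They varied unequally between water animals, with an SD of 0.94 for Kcnc2, 0.72 for Pvalb and 0.61 for Kcnc1. For Sst, Npy and Gad1 it was 0.28, 0.16 and 0.13. Of the 9 genes of that list 6 were above the floor (Kit, Nos1 and Syt2 were not), and its mean ran from 11.09 to 11.49 in ethanol and from 10.99 to 12.18 in water. Its part in the result was not tested. Hapln2, the link protein of the nodes of Ranvier, which oligodendrocytes make, ran from 8.38 to 9.32 in ethanol (median 8.64) and from 7.71 to 9.57 in water (median 8.77), and its difference was 0.03 (adjusted p = 0.963). Here the water animals lay on both sides of the ethanol range, low in 12 to 15 (7.71 to 8.10) and high in 17 and 20 (9.55 and 9.57). The difference was accordingly 0.36 without animals 17, 19 and 20, and -0.16 without 12 and 13. Hapln1, the link protein of most cortical nets, differed by 0.12 (95% interval -0.15 to 0.39), and by -0.05 without animals 17, 19 and 20.

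Laminins, the heterotrimers on which basement membranes assemble, had 6 negative and 2 positive differences among 8 members and a median of -0.04. Lama2, the alpha chain of laminins made by perivascular cells and astrocytes, ran from 7.48 to 7.74 in ethanol (median 7.56) and from 7.45 to 7.97 in water (median 7.77). Of the ethanol animals 9 of 10 were below the water mean, and the difference was -0.14 ± 0.06 (SE, unadjusted p = 0.0276, adjusted p = 0.377). Water animal 16, at 7.45, was below every ethanol animal, and animal 21, at 7.51, was within the ethanol range. The difference was -0.11 without animals 17, 19 and 20, and also -0.11 without 12 and 13. Lamc1, the gamma chain shared by most laminins, differed by -0.02 (95% interval -0.15 to 0.10), and by -0.11 without animals 17, 19 and 20. The other 6 chains (Lama1, Lama4, Lama5, Lamb1, Lamb2 and Lamc3) lay between -0.08 and 0.05. Collagen IV chains, the net of the same membrane, were similar. Col4a1, Col4a2, Col4a5 and Col4a6 differed by -0.07, -0.05, -0.01 and 0.03, and none had an unadjusted p under 0.05.

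Collagens as a family had 18 positive and 10 negative differences among 28 members above the floor, and a median of 0.02. The fibrillar collagens of connective tissue lay close to 0. Col1a1, Col1a2 and Col3a1 differed by 0.01, 0.09 and 0.04, and Col5a1 and Col5a2 by 0.03 and 0.04. Without animals 12 and 13 the family median was -0.015, and without 17, 19 and 20 it was 0.095.

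The positive differences of size came from minor collagens. Col19a1, a nonfibrillar collagen that interneurons make and that takes part in synapse formation, ran from 7.36 to 8.17 in ethanol (median 7.98) and from 6.49 to 8.14 in water (median 7.70). Its difference was 0.38 ± 0.19 (SE, adjusted p = 0.413). Water animals 12, 13 and 20 were at 6.49, 6.73 and 6.98, below every ethanol animal, and without 12 and 13 the difference was 0.16. Col11a1, a minor fibrillar collagen, ran from 9.30 to 10.08 in ethanol (median 9.87) and from 8.15 to 10.12 in water (median 9.75), with a difference of 0.29 (adjusted p = 0.549). Animals 12 and 13 alone were low, at 8.15 and 8.58, and the difference was 0.002 without them and 0.50 without animals 17, 19 and 20. The second Col11a1 probe set above the floor differed by 0.16. Col27a1, a fibril-forming collagen best known from cartilage, was above the water mean in 10 of 10 ethanol animals, at 8.03 to 8.38 (median 8.19) against 7.32 to 8.30 in water (median 8.15). That water mean was set low by animals 12 and 13, at 7.50 and 7.32. The difference of 0.22 (unadjusted p = 0.045, adjusted p = 0.404) became 0.075 without these animals.

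Col11a2 and Col15a1 had unadjusted p-values under 0.05 with smaller differences. Col11a2, the partner chain of Col11a1 in fibrils, was at 8.79 ± 0.16 in ethanol and 8.597 ± 0.24 in water (SD, n = 10 each), 0.19 higher in ethanol (adjusted p = 0.397), and 0.10 higher without animals 12 and 13. Col15a1, a collagen of the outer basement membrane of vessels, ran from 6.87 to 7.26 in ethanol (median 7.07) and from 6.69 to 7.22 in water (median 6.98). It was 0.16 higher in ethanol (adjusted p = 0.399), with 9 of 10 ethanol animals above the water mean. This difference was little altered without animals 12 and 13 (0.16) or 17, 19 and 20 (0.19). Col25a1, a transmembrane collagen of neurons, differed by -0.07 (adjusted p = 0.868), with 10.74 to 11.70 in ethanol (median 11.41) and 10.46 to 12.02 in water (median 11.49). It differed by 0.11 without animals 17, 19 and 20, which were among the highest water values.

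ADAMTS proteases, which include the main lectican-cutting enzymes, had 6 of 12 members above the floor, 4 with positive and 2 with negative differences. Adamts1, a secreted enzyme that cuts aggrecan and versican and that is induced by growth factors in many cells, had the smallest p of all members. Its values ran from 6.43 to 7.34 in ethanol (median 7.12) and from 5.85 to 7.16 in water (median 6.56). It was 1.33-fold higher in ethanol (0.41 ± 0.15 SE, unadjusted p = 0.0124, adjusted p = 0.327), and 9 of 10 ethanol animals were above the water mean. The groups overlapped, with 6 water animals within the ethanol range: 12, 13, 14 and 15, at 7.16, 7.05, 6.93 and 6.90, and 16 and 20, at 6.51 and 6.61. The other 4 water animals (17, 18, 19 and 21) lay below it, at 5.85 to 6.40. In the first run of the order of deposit, which held water animals 12 to 15, ethanol animals 1 to 4 were at 6.43, 6.66, 7.09 and 6.88. Ethanol animals 5 to 10, in later runs, were at 6.77 to 7.34. The probe set was dim, close to the floor of 6.65. Across the alternatives that kept its probe set the difference stayed between 0.33 (without animals 17, 19 and 20) and 0.54 (without 12 and 13), with adjusted p-values of 0.209 to 0.706.

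Adamts4, an aggrecanase that oligodendrocytes make in the adult brain, leaned the other way. It ran from 9.15 to 9.90 in ethanol (median 9.35) and from 9.18 to 10.08 in water (median 9.74). In ethanol 8 animals were at 9.41 or below and animals 7 and 8 were at 9.82 and 9.90, while in water 7 animals were at 9.73 or above. The difference was -0.26 ± 0.12 (SE, unadjusted p = 0.0372, adjusted p = 0.397). The mean of 15 oligodendrocyte and myelin markers was 0.16 lower in ethanol (10.74 to 11.62 in ethanol, 10.68 to 11.62 in water, adjusted p = 0.371 by permutation), and with that mean as a covariate Adamts4 differed by -0.12. In bulk tissue, fewer cells of a type and less RNA per cell cannot be told apart, and the cause of the difference was not tested. Without animals 17, 19 and 20 the difference was -0.14, and without 12 and 13 it was -0.32.

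Adamts19, an ADAMTS enzyme with no established matrix substrate, had the most positive difference of all members, 0.51 ± 0.27 (SE, adjusted p = 0.45). It ran from 7.07 to 9.11 in ethanol (median 8.10) and from 6.65 to 8.61 in water (median 7.62). Ethanol animals 5 and 1 were the highest, at 9.11 and 8.92, and water animals 20, 17 and 12 the lowest, at 6.65, 6.87 and 6.92. The difference was 0.22 without animals 17, 19 and 20. The mean of 15 medium spiny neuron markers, all with positive differences, was 0.26 higher in ethanol (12.51 to 13.11 in ethanol, 11.72 to 13.08 in water, adjusted p = 0.256 by permutation), and its part in the result was not tested. Adamts7, Adamts9 and Adamts10 differed by 0.07, 0.004 and -0.10, and Adamts5, another aggrecanase, was below the floor at 6.26 ± 0.16 in ethanol and 6.38 ± 0.32 in water.

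**Figure D2:**
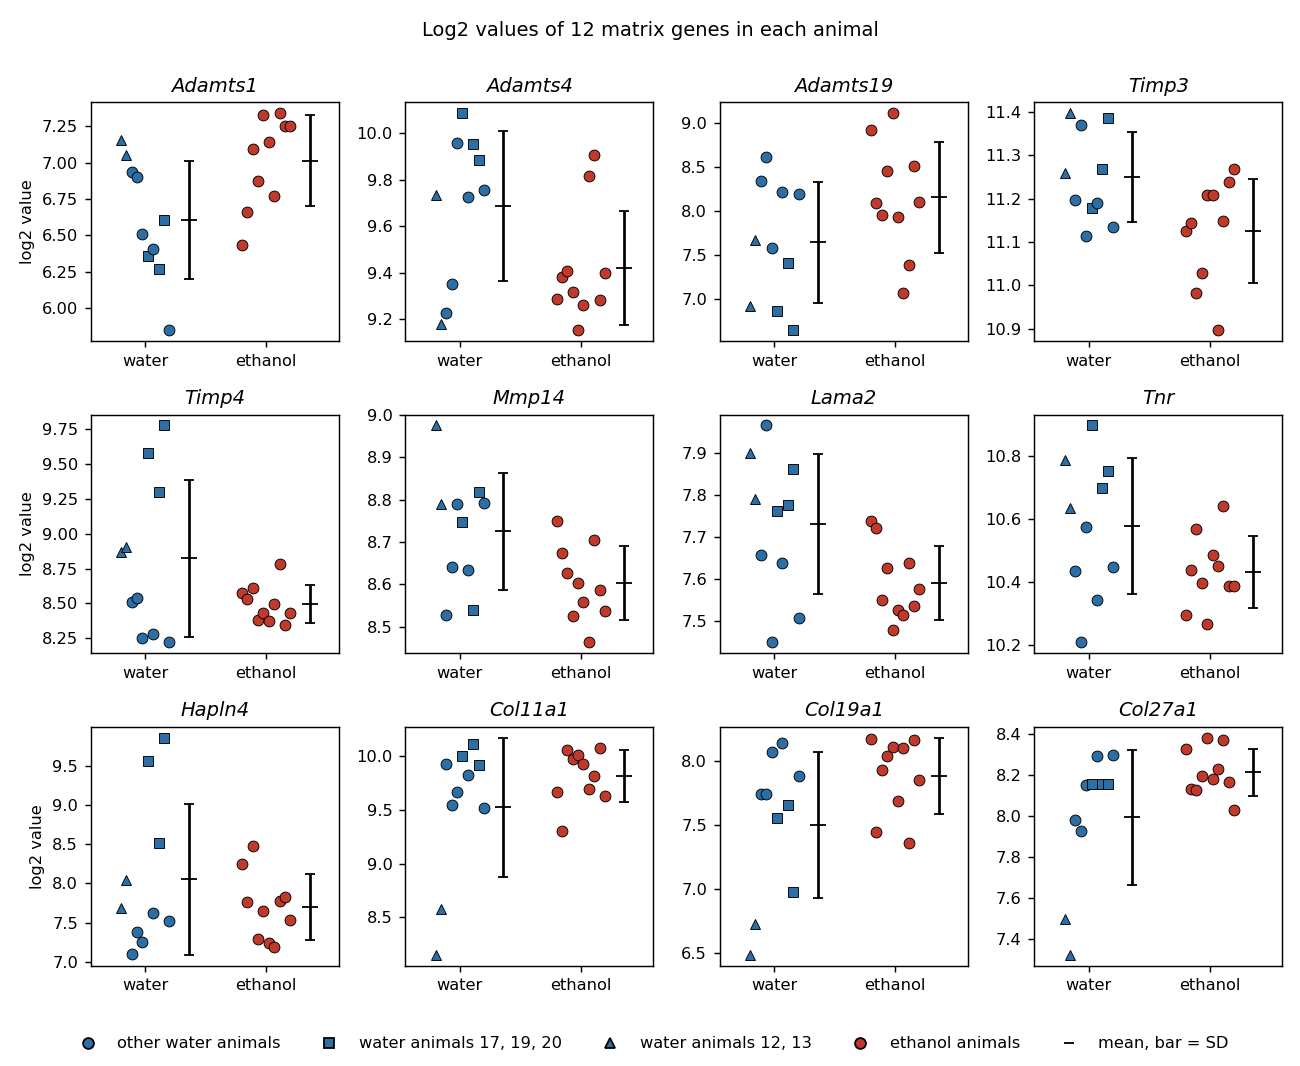
Log2 values of 12 matrix genes in each of the 10 water and 10 ethanol animals, with the mean and SD of each group beside the points. Adamts1 was 0.41 higher in ethanol with overlapping groups, water animals 12 and 13 were the lowest for Col11a1 (8.15 and 8.58), and water animals 17, 19 and 20 the highest for Hapln4 and Timp4.

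MMP proteases, which cut collagens, laminins and many other proteins, had 6 of 17 members above the floor. Among them were Mmp14, Mmp15, Mmp16, Mmp17 and Mmp24, which are anchored in the membrane. The gelatinases Mmp2 and Mmp9 and the stromelysin Mmp3 were below it. Mmp14, which activates the precursor of Mmp2, ran from 8.46 to 8.75 in ethanol (median 8.59) and from 8.53 to 8.98 in water (median 8.77). It was lower in ethanol by 0.12, with 9 of 10 ethanol animals below the water mean (-0.12 ± 0.05 SE, unadjusted p = 0.0293, adjusted p = 0.379). Its further probe set differed by -0.09, of the same sign. Mmp17, a GPI-anchored enzyme, differed by 0.09 (95% interval -0.06 to 0.24), and by -0.0091 without animals 17, 19 and 20. Mmp15, Mmp16, Mmp23 and Mmp24 lay between -0.05 and 0.04.

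All 3 TIMP inhibitors above the floor had negative differences, with a median of -0.12. Timp3, the one TIMP that binds to the matrix and that also blocks ADAMTS enzymes, ran from 10.90 to 11.27 in ethanol (median 11.15) and from 11.11 to 11.40 in water (median 11.23). Of the ethanol animals 9 of 10 were below the water mean, and the difference was -0.12 ± 0.05 (SE, unadjusted p = 0.0238, adjusted p = 0.364). It held at -0.11 without animals 17, 19 and 20 and at -0.10 without 12 and 13. Its 3 probe sets above the floor lay between -0.12 and -0.001. Timp4, an inhibitor made by astrocytes in the brain, was below the water mean in 10 of 10 ethanol animals, at 8.34 to 8.78 (median 8.46) against 8.22 to 9.78 in water (median 8.71). Animals 17, 19 and 20 set that mean high, at 9.58, 9.30 and 9.78, while water animals 16, 18 and 21 were at 8.25, 8.28 and 8.22, below every ethanol animal. The difference was -0.33 (adjusted p = 0.444), and -0.01 without animals 17, 19 and 20. Timp2, made by neurons and glia, was level at 11.40 ± 0.05 in ethanol and 11.41 ± 0.11 in water (SD, n = 10 each), with a difference of -0.01.

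Genes that build, bind or process the same matrix were counted from 7 lists of related genes that are not members. They covered core glycoproteins, small proteoglycans and matricellular proteins, heparan sulfate proteoglycans, hyaluronan and chondroitin enzymes, collagen modification, matrix receptors and other proteases. Of 130 such genes 95 were above the floor and 0 passed (limma, smallest adjusted p = 0.381). An unadjusted p under 0.05 was found for 3 (3.16%, against 10.01% of all genes), all lower in ethanol. Their median difference was -0.01, with 41 positive and 54 negative. The 3 genes were Ltbp3, which tethers TGF-beta in the matrix (-0.18, adjusted p = 0.394), Cspg4, the NG2 proteoglycan of oligodendrocyte precursors and pericytes (-0.15, adjusted p = 0.381), and Hyal2, a hyaluronidase at the cell surface (-0.09, adjusted p = 0.409). Per list the other genes of smallest p were Fn1 (fibronectin, 0.16), Spock1 (-0.23), Gpc3 (-0.31), Sdc3 (-0.14), Cemip (0.15), Plod2 (-0.11), Loxl1 (-0.17), Itga3 (-0.11), Cd44 (the hyaluronan receptor, 0.09), Serpine2 (-0.11) and Adam9 (0.10). Of these, Ltbp3 was at -0.05, Gpc3 at 0.02 and Spock1 at -0.04 without animals 17, 19 and 20.

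Whether members varied together from animal to animal was examined with each group's mean subtracted from every value first, so that all r and rho below describe variation within groups. Over all 20 animals the median r of the 1711 pairs of the 59 members was 0.083. Because animals 17, 19 and 20 stood apart, the pairs were then taken over the other 17 animals (10 ethanol, 7 water). There the median r was 0.0438 for the member pairs and 0.0253 for the pairs of all 10746 genes. Of the member pairs 52 (3.04%) had an r of at least 0.7 in size, against 2.14% of the pairs of all genes. After adjustment 44 pairs passed by Pearson's r, 36 positive and 8 negative, and 10 of these also passed by Spearman's rho. For these 10 pairs the permutation p-values were 1e-05 to 0.00089 for r and 1e-05 to 0.00035 for rho (1e-05 is the smallest that 100000 resamples can give), and adjusted p-values were 0.00489 to 0.0405 and 0.0103 to 0.0499. Without the 2 animals farthest from the median of the first gene their r lay between 0.62 and 0.93 in size. Each r keeps its sign in the ethanol and in the water animals taken alone.

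Hapln2 was in 3 of these pairs. Hapln2 and Col9a3 had r = 0.92 and rho = 0.81, Hapln2 and Col16a1 had r = 0.91 and rho = 0.88, and Adamts4 and Hapln2 had r = 0.85 and rho = 0.78. Within the ethanol animals these r were 0.86, 0.85 and 0.86, and within the 7 water animals 0.97, 0.94 and 0.85. Animals 7 and 8 were the highest ethanol animals for Adamts4 (9.82 and 9.90) and for Hapln2 (9.04 and 9.32), and animals 12 to 15 were low for Hapln2.

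A set of opposite signs joined Adamts19, Lamc1 and Tnr. Adamts19 and Lamc1 had r = 0.86 and rho = 0.88, and both opposed Tnr, with r = -0.83 and rho = -0.88 for Adamts19 and r = -0.82 and rho = -0.86 for Lamc1. Adamts19 also followed Col25a1, at r = 0.82 and rho = 0.81, but over all 20 animals that r was 0.27. The remaining pairs were Col11a2 with Lama5 (r = 0.88, rho = 0.82), Lamb2 with Lama4 (r = 0.82, rho = 0.84) and Timp3 with Col5a3 (r = -0.73, rho = -0.80, and r = -0.46 over all 20 animals).

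A group of minor collagens rested on animals 12 and 13. Col11a1 had r = 0.85 with Col19a1, 0.85 with Col5a2, 0.80 with Col24a1 and 0.76 with Col27a1 over 17 animals, and none of these pairs passed by rho. Without animals 12 and 13 the same r were 0.40, 0.62, 0.29 and 0.097.

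**Figure D3:**
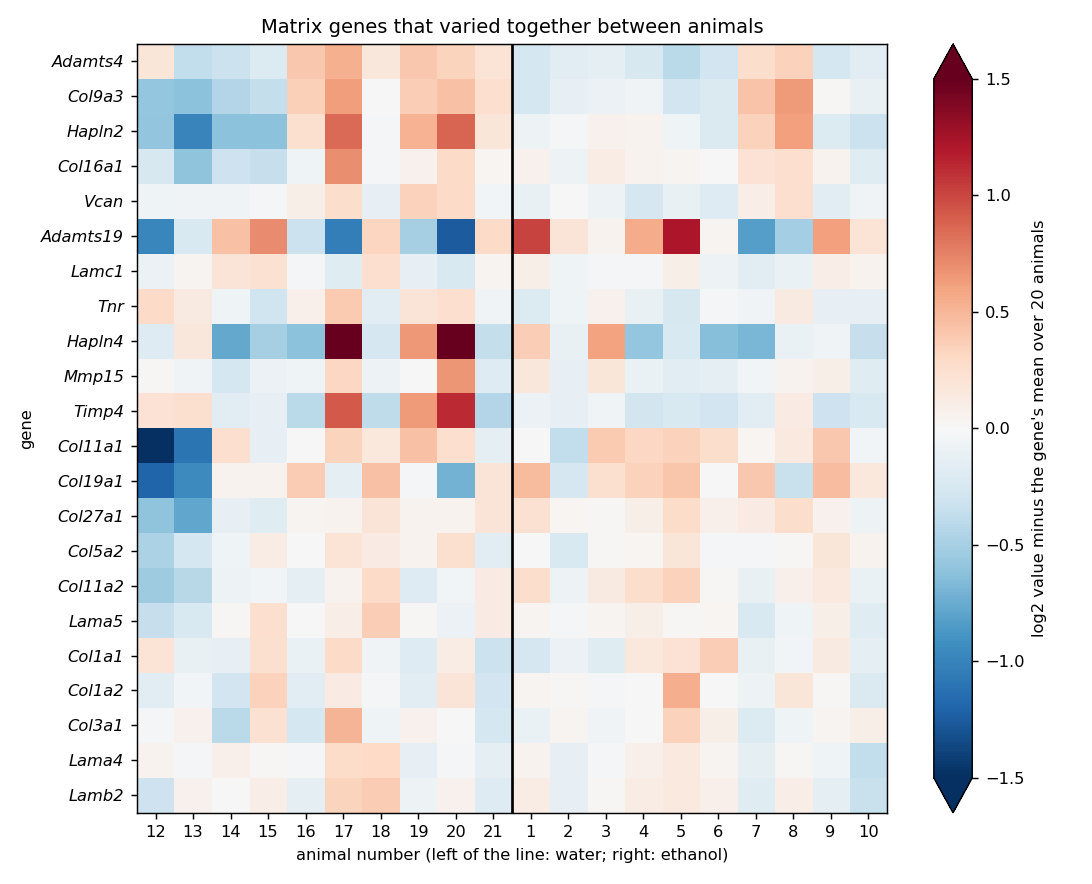
Log2 value minus the gene's mean over 20 animals for 22 matrix genes (rows) in each animal (columns, water left of the line and ethanol right of it). Col9a3, Col16a1 and Adamts4 each vary with Hapln2 across animals, Adamts19 runs opposite to Tnr, and Col11a1, Col19a1 and Col27a1 are low in water animals 12 and 13.

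The 59 members were each set against the means of 9 cell type marker lists, 531 relations in all over 17 animals, and 18 passed after adjustment by r. An r of at least 0.7 in size was found in 20 of the 531 (3.77%), against 2.71% over all genes, each list's own genes left out. By list, members came first and all genes second. The shares were 6.78 and 8.07% for medium spiny neuron, 6.78 and 4.3% for oligodendrocyte, and 3.39 and 5.35% for precursor markers. They were 3.39 and 0.326% for astrocyte, 0 and 2.87% for microglia, and 5.08 and 2.5% for endothelial markers. For pericyte, fibroblast and interneuron markers they were 5.08 and 0.186%, 1.69 and 0.261%, and 1.69 and 0.559%. The 18 that passed were 4 with medium spiny neuron markers, 4 with oligodendrocyte, 3 with endothelial, 2 with astrocyte and 2 with pericyte and smooth muscle markers, and 1 each with precursor, fibroblast and interneuron markers, while microglia had 0. Adamts4 followed the oligodendrocyte and myelin mean most closely, with r = 0.94 and rho = 0.94 (permutation p = 1e-05 for both, the smallest that can be given, adjusted p = 0.00531 for both), 0.92 without the 2 farthest animals, 0.98 in ethanol and 0.92 in water. Col9a3, Vcan and Hapln2 had r of 0.85, 0.81 and 0.78 with the same mean (adjusted p = 0.00531, 0.0173 and 0.0137), but did not pass by rho (0.71, 0.62 and 0.71). Col16a1 had r = 0.61 and did not pass (adjusted p = 0.133). Adamts19 followed the medium spiny neuron mean, with r = 0.84 and rho = 0.89 (adjusted p = 0.00531 and 0.00796), and Lamc1 did so with r = 0.71 and rho = 0.81 (adjusted p = 0.0358 and 0.0181). Tnr ran against that mean, with r = -0.78 and rho = -0.83 (adjusted p = 0.0137 and 0.0124), and -0.88 and -0.89 in the ethanol and water animals alone. Vcan also ran against it by r (-0.79, adjusted p = 0.0177) but not by rho. Adamts19 ran against the oligodendrocyte precursor mean (r = -0.73, rho = -0.84, adjusted p = 0.0179 and 0.0133). These marker means came from the same arrays, so the relations are not separate.

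**Figure D4:**
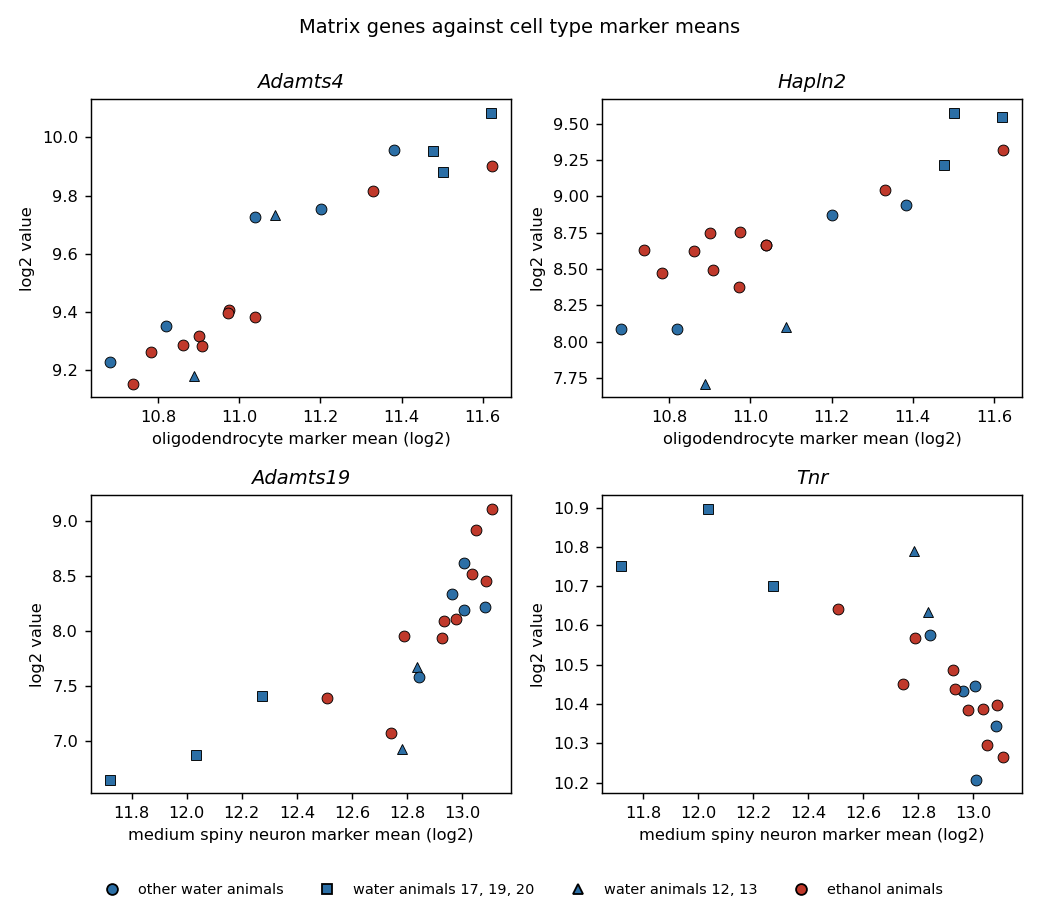
Log2 values of Adamts4 and Hapln2 against the mean of 15 oligodendrocyte and myelin markers, and of Adamts19 and Tnr against the mean of 15 medium spiny neuron markers, with 1 point per animal. Over the 17 animals other than water 17, 19 and 20, r was 0.94, 0.78, 0.84 and -0.78 after the group means were subtracted, whereas the points show the values as they are.

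Further relations were with vascular, astrocyte, fibroblast or interneuron markers. Reln followed the endothelial mean (r = 0.77, rho = 0.79, adjusted p = 0.0179 and 0.0205), with r = 0.85 in ethanol and 0.49 in water. Col9a3 and Adamts4 ran against that mean by r (-0.74 and -0.72, adjusted p = 0.0338 and 0.0387) but did not pass by rho. Col1a2 and Col4a5 had r of 0.75 and 0.71 with the astrocyte mean (adjusted p = 0.0338 and 0.0472) and did not pass by rho. Hapln4 followed the mean of the 6 GABAergic interneuron markers (r = 0.82, adjusted p = 0.00664, rho = 0.71, which did not pass), and r was 0.95 with animals 17, 19 and 20 included. Col1a2 followed the fibroblast mean (r = 0.80, adjusted p = 0.0127, rho = 0.73, which did not pass), and Col18a1 and Col3a1 the pericyte and smooth muscle mean (r = 0.75 and 0.72, adjusted p = 0.0248 and 0.0358). Col18a1 had an SD of 0.06 in water and 0.20 in ethanol, so most of the variation behind its r was in ethanol animals.

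Means over groups of members were set against marker means in 6 relations, with p-values adjusted over the 6, here over all 20 animals first and then without animals 17, 19 and 20. The mean of 5 fibrillar collagens (Col1a1, Col1a2, Col3a1, Col5a1 and Col5a2) followed the fibroblast mean, with r = 0.82 and rho = 0.76 (permutation p = 1e-05, the smallest that can be given, and 0.00021, adjusted p = 3e-05 and 0.00126). Without animals 17, 19 and 20 these were r = 0.73 and rho = 0.55 (adjusted p = 0.0066 and 0.114), and r was 0.40 when the 2 farthest of the 17 animals were also left out, so the relation rests partly on those. The mean of collagen IV and laminins (12 genes) had r = 0.49 and rho = 0.55 with the endothelial mean (permutation p = 0.0274 and 0.0133, adjusted p = 0.0386 and 0.0199), and r = 0.45 and rho = 0.51 (adjusted p = 0.139 and 0.114) without the 3 animals. The mean of 7 net genes (Vcan, Bcan, Acan, Tnr, Hapln1, Hapln2 and Hapln4) had r = 0.81 and rho = 0.56 with the oligodendrocyte precursor mean (permutation p = 2e-05 and 0.0111, adjusted p = 4e-05 and 0.0199). With the medium spiny neuron mean it had r = -0.89 and rho = -0.72 (permutation p = 1e-05 and 0.00057, adjusted p = 3e-05 and 0.00171). Both rest on animals 17, 19 and 20, since without them r was 0.48 and -0.39 (adjusted p = 0.139 and 0.175). The mean of all 59 members had r = 0.48 and rho = 0.32 with the oligodendrocyte mean (adjusted p = 0.0386 and 0.197), and r = 0.03 without the 3 animals. With the 3' minus 5' value r was 0.02 (adjusted p = 0.938), and -0.0091 without the 3 animals.

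The sequence before the start of transcription was read for the members that the RefSeq promoter table for the rat assembly GRCr8 holds, 73 of 95, over the 250 bases before the start. Adamts4 and Hapln2 are shown because they varied together and with oligodendrocyte markers, and Adamts1 because it had the smallest p. Adamts4 lies on chromosome 13 (chr13:86202761-86203010, plus strand), Hapln2 on chromosome 2 (chr2:175794439-175794688, minus strand) and Adamts1 on chromosome 11 (chr11:38427385-38427634, minus strand). All are printed 5' to 3' on the strand of the gene, with matches to the searched letters in capitals.
Adamts4: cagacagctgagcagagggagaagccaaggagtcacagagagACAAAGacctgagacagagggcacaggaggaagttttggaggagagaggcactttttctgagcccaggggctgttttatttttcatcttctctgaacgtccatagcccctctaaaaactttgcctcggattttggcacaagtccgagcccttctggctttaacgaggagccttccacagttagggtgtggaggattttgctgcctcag
Hapln2: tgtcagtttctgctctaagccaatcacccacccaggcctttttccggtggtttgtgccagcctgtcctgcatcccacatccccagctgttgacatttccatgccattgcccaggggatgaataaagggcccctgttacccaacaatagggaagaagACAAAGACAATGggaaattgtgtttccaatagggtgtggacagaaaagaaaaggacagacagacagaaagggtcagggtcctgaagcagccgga
Adamts1: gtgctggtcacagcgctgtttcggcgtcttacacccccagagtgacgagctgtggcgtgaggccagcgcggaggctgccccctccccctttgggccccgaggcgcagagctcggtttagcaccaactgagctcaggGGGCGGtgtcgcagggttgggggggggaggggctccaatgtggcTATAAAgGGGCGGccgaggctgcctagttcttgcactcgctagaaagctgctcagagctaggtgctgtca

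The letters searched on both strands were ACAAAG and ACAATG, cores that SOX factors such as the oligodendrocyte factor Sox10 bind, TATAAA, the core of the TATA box, GGGCGG, the core of the GC box, TGANTCA, read by AP-1, and TGACGTCA, the cyclic AMP response element. In the Adamts4 window ACAAAG began at -208 from the start. In the Hapln2 window ACAAAG began at -94 and ACAATG at -88, side by side without overlap. In the Adamts1 window TATAAA began at -70, and GGGCGG at -114 and -63. Of 27457 promoters of the same length 16% held ACAAAG, 10.9% ACAATG, 13.1% TATAAA, 32.4% GGGCGG, 6.36% TGANTCA and 1.7% TGACGTCA. Of the 73 members 6, 4, 16, 40, 7 and 2 held them, in that order. A match describes these letters and shows no binding.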

How the data were processed

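RNA of the nucleus accumbens shell from 10 ethanol and 10 water animals was hybridised to 1-colour Affymetrix arrays, 1 array per animal. Per the labels' protocols, biotinylated cRNA was made with a kit that labels from the 3' end, so values depend on RNA integrity. The authors deposited log2 values, made with RMA per the submitters' processing notes, a method that corrects background, equalises arrays and combines the probes of each probe set. Neither its software nor version nor chip definition is given in the sources used here. Values ran from 3.89 to 16.25 and array medians from 7.93 to 7.98. RMA compresses differences at low signal and hides a shift shared by most genes. The number of arrays limits the precision. Animal number 11 was not analysed here.

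Probe sets were named from the platform annotation where it gave 1 gene, and all 95 members matched a gene of the RefSeq table by identifier. The lowest 33.3% of probe sets by mean (below 6.65) and 57 controls were left out. Groups were compared with limma 3.58.1 under R 4.3.3 (lmFit, then eBayes, two-sided, no covariates), with Benjamini-Hochberg adjustment over 20695 probe sets and a threshold of 0.05. Genes were read from the probe set of highest mean. The fit was tested on simulated data. Marker means and array measures were compared by two-sided permutation tests, and correlations by permutation, with 100000 resamples, after each group's mean was subtracted. An array was called outlying if its median correlation to other arrays was low by more than 3 scaled median absolute deviations.

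Named genes were the 10 of smallest p, the 5 largest differences each way, the brightest of each family and the 7 named in the rule, plus 2 per related list. Members of correlated pairs, and members named by family, were named after their values were seen. The members and lists were chosen with earlier results of these data known. Alternatives changed the floor, normalization, variance model, array weights, probe set choice, covariates, run in the order of deposit, arrays and threshold. Leaving out animals 12 and 13 was chosen after seeing the data. The water animals that stood apart in medium spiny neuron markers were likewise picked out by their values in these data. The p-values of member pairs, and of members against marker lists, were computed without those animals and so depend on that choice.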

Additional observations from a re-analysis of the deposited data

Results flagged for a closer look

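In the values of 25 members, in each group, 2 of 50 sets held an animal far from the others, where chance gives about 1 in 20. For Col25a1, ethanol animal 7 was the lowest at 10.74, with the next at 11.34. For Tnc, which was below the floor, ethanol animal 5 was the highest at 6.997, with the next at 6.26.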

How the results depend on the processing

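The count of members past the threshold was 0 under all 14 alternatives (limma, 4 to 12 members at an unadjusted p under 0.05, which is 6.78 to 18.5% of members against 6.05 to 10.9% of genes), and so was that of the related genes. Over all genes 2 to 16 passed. The median member difference lay between -0.033 (without animals 12 and 13) and 0.036 (without outlying arrays). Of the single genes named, 493 values kept their direction and 12 did not. Without animals 17, 19 and 20, Hapln4 differed by 0.18, Mmp17 by -0.0091, Timp2 by 0.0027, Col25a1 by 0.11 and Gpc3 by 0.0163. Without animals 12 and 13, Hapln2 differed by -0.16 and Timp2 by 0.0184. Without outlying arrays, Hapln4 differed by 0.0626 and Timp2 by 0.0223. Timp2 differed by 0.0154 with array weights, Hapln2 by -0.11 with the 3' minus 5' value as covariate, and Bcan by 0.0309 as the mean of its probe sets. Over all 59 members, 11 turned sign without animals 17, 19 and 20, and 8 without 12 and 13. Of 6 relations to marker or array measures, that of fibrillar collagens with fibroblast markers passed by r with and without animals 17, 19 and 20, but by rho the adjusted p went from 0.00126 to 0.114. Without these animals the others had r = 0.45 (collagen IV and laminins with endothelial markers), 0.48 and -0.39 (net genes with precursor and medium spiny neuron markers), 0.0312 (all members with oligodendrocyte markers) and -0.0091 (all members with the 3' minus 5' value, which passed in neither case and had the opposite sign). The cause was not tested. No paired analysis was possible because the animals of both groups carry different numbers. The values hold no background measure, so dim members carry no bound.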
